A study of Mus musculus with 6 samples.

Results

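Histone genes were followed in cells of MCRedAL, a mouse prostate cancer line that carries the red fluorescent protein mCherry and was grown as allografts. The members were the genes whose single annotated symbol, as on the array or after an update through Entrez identifiers, belongs to the H1, H2A, H2B, H3 or H4 gene families, pseudogenes left out, with the brightest transcript cluster standing for each gene. There were 40 of them among 30141 genes tested: 25 replication-dependent genes, 9 replication-independent variants and 6 genes known mainly from the germ line. The untreated group held 3 samples of tumors that had received no drug (titled Intact, called castration sensitive) and the degarelix group 3 samples of tumors (titled 7dPC, called post-ADT) from mice treated with degarelix, a drug that blocks GnRH receptors and thereby stops androgen production by the testes. All mice were male. Mice were randomized, degarelix was injected when tumors measured about 500 mm2, a unit copied from the submitters, who do not explain 7dPC; the time of sampling is thus not known here. In both groups sorting kept cells with mCherry and without CD45, CD11b or F4/80 (the product of Adgre1), and RNA with an integrity number of at least 9 was hybridized to Affymetrix MTA 1.0 arrays with 1 array per sample. The labels call the samples biological replicates but do not say whether each came from its own mouse, so p-values measure the spread between these 3 samples per group.

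Histones H2A, H2B, H3 and H4 form the protein core around which DNA is wound, and linker histone H1 binds where the DNA enters and leaves it. Most of this protein is made in S phase from replication-dependent genes, which lie in clusters, have no introns, and give mRNAs that end in a stem-loop instead of a poly(A) tail; the stem-loop binding protein Slbp holds that end. Variant histones such as H2A.Z, macroH2A and H3.3 come from single genes with ordinary polyadenylated mRNAs, are made throughout the cell cycle, and are placed into chromatin by chaperones of their own. RNA was labelled by a whole-transcript method that does not require a poly(A) tail.

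Upstream sequences are given for 8 members to show promoter elements of replication-dependent genes and variants. The windows are the 150 bases before the annotated start, 5′ to 3′ on the gene's own strand, from RefSeq on GRCm38.p6. Capitals mark 3 motifs searched on both strands: the TATA element TATAAA, the CCAAT box, which reads ATTGG on the other strand, and the octamer ATTTGCAT, an element known from H2B promoters. H2bc18, H2bc12, H2ac20, H2ac15 and H3c8 stand for replication-dependent genes that fell, H4c2 for one that did not pass the test, and H2az1 and H2az2 for the variants encoding H2A.Z. The windows lie at chr3:96269550-96269699 (plus strand) for H2bc18, chr13:22035671-22035820 (plus) for H2bc12, chr3:96220881-96221030 (minus) for H2ac20, chr13:21753913-21754062 (minus) for H2ac15, chr13:23535268-23535417 (plus) for H3c8, chr13:23756787-23756936 (plus) for H4c2, chr3:137864337-137864486 (plus) for H2az1 and chr11:6444444-6444593 (minus) for H2az2.
H2bc18: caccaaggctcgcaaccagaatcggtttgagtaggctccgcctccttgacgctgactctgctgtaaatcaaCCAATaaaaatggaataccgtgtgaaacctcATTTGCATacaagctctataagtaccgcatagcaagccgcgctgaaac
H2bc12: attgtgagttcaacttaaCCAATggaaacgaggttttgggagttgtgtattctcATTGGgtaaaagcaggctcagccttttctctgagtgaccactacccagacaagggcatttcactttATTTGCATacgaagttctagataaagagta
H2ac20: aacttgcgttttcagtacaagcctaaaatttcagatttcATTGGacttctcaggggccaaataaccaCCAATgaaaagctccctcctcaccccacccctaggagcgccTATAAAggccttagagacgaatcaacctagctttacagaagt
H2ac15: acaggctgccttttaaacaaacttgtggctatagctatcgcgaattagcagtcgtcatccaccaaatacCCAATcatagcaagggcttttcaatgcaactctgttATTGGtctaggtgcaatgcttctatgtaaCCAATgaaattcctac
H3c8: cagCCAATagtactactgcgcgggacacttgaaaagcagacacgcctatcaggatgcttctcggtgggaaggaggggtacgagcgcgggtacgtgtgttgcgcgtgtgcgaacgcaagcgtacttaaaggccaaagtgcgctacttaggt
H4c2: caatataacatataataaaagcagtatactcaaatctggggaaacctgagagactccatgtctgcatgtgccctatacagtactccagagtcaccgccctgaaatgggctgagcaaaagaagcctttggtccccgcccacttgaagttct
H2az1: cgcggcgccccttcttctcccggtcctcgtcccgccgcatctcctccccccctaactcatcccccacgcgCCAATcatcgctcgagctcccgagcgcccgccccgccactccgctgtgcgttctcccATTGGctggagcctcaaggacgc
H2az2: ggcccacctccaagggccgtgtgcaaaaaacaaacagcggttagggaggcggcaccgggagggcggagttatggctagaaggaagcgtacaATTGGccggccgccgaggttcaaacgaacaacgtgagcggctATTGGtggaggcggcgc

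Of the 40 members, 35 had a window of 300 bases (250 before the start to 50 after it) in the RefSeq table. The CCAAT box was in 21 of 22 windows of replication-dependent genes (95.5%), in 4 of 7 of variants (57.1%) and in 37.9% of 27025 gene promoters of the same length. The TATA element was in 12 of the 22 (54.5%) and in 0 of the 7, against 14.2% of all. The octamer was in 6 of the 22 (27.3%), 4 of which were H2B genes, and in 0 of the 7, against 1.75% of all. Of the 6 germline windows 4 held the CCAAT box (66.7%), 2 the TATA element (33.3%) and 2 the octamer (33.3%). Of the windows printed, those of H2bc18 and H2bc12 carry the octamer, that of H2ac20 a TATA element and both H2A.Z windows 2 CCAAT boxes each. A match describes the letters only, at any position in the window and on either strand. H4c2 has none of these motifs in its 300 bases, the only window of the 22 without a CCAAT box. The other replication-dependent genes that did not pass the test, H1f1, H2ac21, H2ac18, H2bc3 and H4c1, carry the CCAAT box and the TATA element. A link between motifs and changes was not tested. H2ac15 and H2bc12 count for the TATA element through the 300 bases, but not within the 150 printed, and H2ac20 likewise for the octamer. The windows of H2ac12 and H2bc12 overlap, as do those of the germline genes H2ac1 and H2bc1, so the same match can count for both genes of a pair.

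Most replication-dependent histone genes fell after degarelix, while most variants did not pass the test. Of the 25 replication-dependent genes 19 fell (76.0%), none rose and 6 did not pass the test, where 7.51% of all genes tested fell and 4.19% rose (limma, adjusted p under 0.05 over all genes). At an unadjusted p under 0.05 the counts were 22 lower and 0 higher, where 4507 of the 30141 genes tested were lower and 3381 higher. Their median change was -0.51 on the log2 scale, against 0.04 over all genes. For 22 of the 25 the lowest untreated array lay above the highest degarelix array, an arrangement found for 16.4% of all genes. Of the 9 variants 2 fell and none rose (median -0.16), with 4 lower and 1 higher at an unadjusted p under 0.05. The difference between the classes is described by these counts and was not tested.

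**Figure D1:**
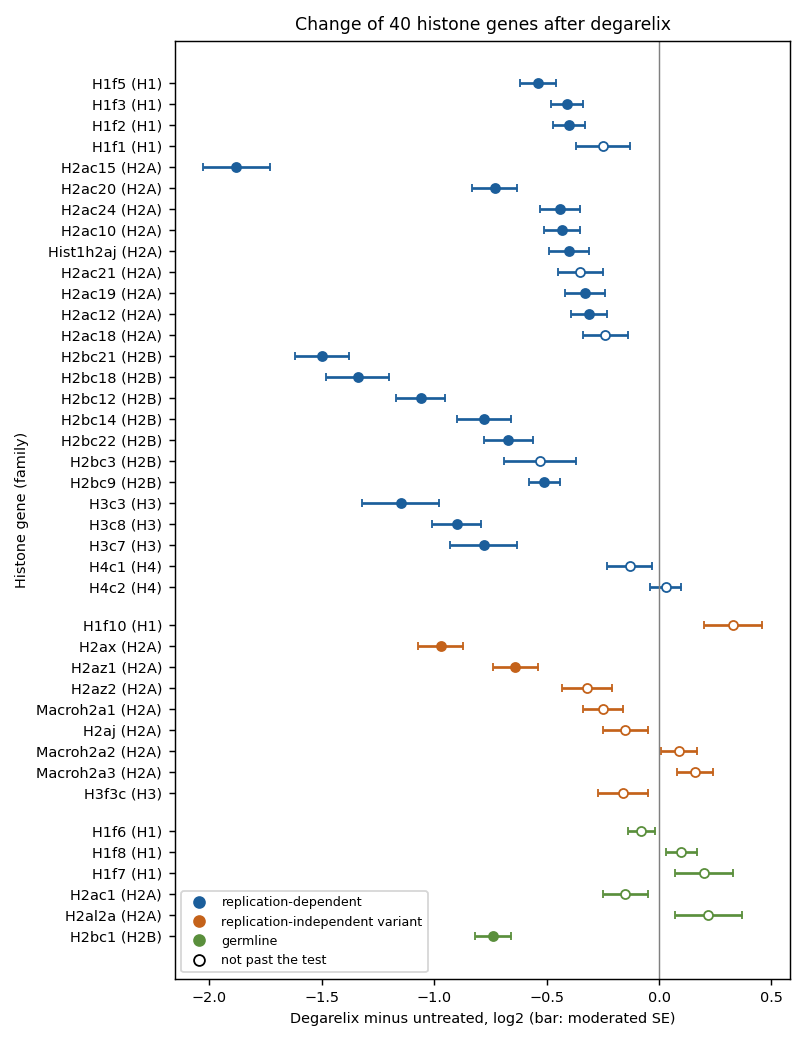
Change of each of the 40 histone genes (degarelix minus untreated, log2, x axis; bars are moderated SE), ordered by class and family, with filled points for genes past the test. Blue replication-dependent genes lie between -1.88 and 0.03, orange variants between -0.97 and 0.33 and green germline genes between -0.74 and 0.22.

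The same class difference was seen array by array. Taking each gene relative to its untreated mean, the median over the 25 replication-dependent genes was -0.11, 0.05 and 0.01 on the log2 scale in untreated replicates 1, 2 and 3 and -0.52, -0.49 and -0.50 in the degarelix replicates. For the 9 variants it was -0.16, 0.01 and 0.08 and then -0.25, -0.15 and -0.16. The replication-dependent median was thus lower in each degarelix array than in any untreated one, while the variants of untreated replicate 1 lay level with those of the degarelix arrays. Fewer cells in S phase and less histone mRNA per cell cannot be told apart in bulk arrays.

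Replication-dependent H2B genes had some of the largest falls. H2bc21 (Hist2h2be), a replication-dependent gene also known to give polyadenylated mRNA, was at 9.03, 9.08 and 9.08 (log2) in untreated and 7.56, 7.30 and 7.83 in degarelix replicates. Every treated value was more than a log2 unit below every untreated one, a 2.83-fold difference in means (change -1.50, SE 0.12, limma adjusted p = 2.54e-04). H2bc18 (Hist2h2bb), a gene of the same locus with the octamer shown above, was at 7.77, 8.17 and 7.85 and then 6.33, 6.63 and 6.82 (change -1.34, SE 0.14, limma adjusted p = 8.13e-04). Its degarelix mean of 6.59 was not above the brightest background probe set, at 6.93, so the change may be understated. H2bc12 (Hist1h2bk), whose window also holds the octamer, fell by 1.06, with both group means in the background range. The octamer was likewise in the windows searched for H2bc14 (change -0.78) and for H2bc3 (-0.53), which was not called. It was absent from those of H2bc22 (-0.67) and H2bc9 (-0.51), and H2bc21 had no window. Outside H2B, the replication-dependent genes H2ac20 (-0.73) and H2ac12 (-0.31) had it. A link between the octamer and the size of a fall was not tested. In all 6 of 7 replication-dependent H2B genes fell, with a median of -0.78, and the groups overlapped for none. The 1 not called, H2bc3, was at 6.60, 6.32 and 6.63 and then 6.31, 6.03 and 5.63, with its lowest value in degarelix replicate 3 (change -0.53, limma adjusted p = 0.0733).

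Replication-dependent H2A genes ranged from the largest fall of all members to small ones. H2ac15 (Hist1h2ak) was at 8.0, 8.17 and 8.44 in untreated and 6.29, 6.60 and 6.10 in degarelix replicates (change -1.88, SE 0.15, limma adjusted p = 2.11e-04). The groups stood far apart, and the treated values were no brighter than that background probe set, so this change too may be understated. H2ac20, the neighbour of H2bc21, was at 5.31, 5.49 and 5.67 and then 4.72, 4.87 and 4.68 (change -0.73, SE 0.10, limma adjusted p = 0.00304). Both groups of H2ac20 were within the background range and did not overlap.

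The brightest H2A member, Hist1h2aj, was at 12.26, 12.44 and 12.47 and then 11.87, 12.03 and 12.08 (change -0.40, SE 0.09, limma adjusted p = 0.0224). It lost its call on leaving out untreated replicate 2 or 3 or degarelix replicate 1 or 2 (limma adjusted p = 0.0781, 0.0824, 0.085 and 0.066). In all 7 of 9 replication-dependent H2A genes fell (median -0.40), and the groups overlapped for none. Those nearest the threshold were H2ac19 (limma adjusted p = 0.046) and H2ac21 (0.0517), with changes of -0.33 and -0.35, and the call of each turned under several alternatives.

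All 3 replication-dependent H3 genes fell, with untreated means within the background range. H3c3 (Hist1h3c) was at 5.81, 6.25 and 5.47 in untreated and 4.77, 4.58 and 4.71 in degarelix replicates (change -1.15, SE 0.17, limma adjusted p = 0.00398). Its untreated values were spread over more than its treated ones. H3c8 (Hist1h3g) was at 4.11, 4.54 and 4.35 and then 3.42, 3.56 and 3.34 (change -0.90, SE 0.11, limma adjusted p = 0.00189), and H3c7 (Hist1h3f) had a change of -0.78 (limma adjusted p = 0.0119), a call lost without degarelix replicate 1 (0.0568).

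The 2 H4 members gave no call in limma. H4c1 (Hist1h4a) was at 4.18, 4.47 and 4.26 and then 4.02, 4.26 and 4.23, and H4c2 (Hist1h4b) at 3.24, 3.22 and 3.34 and then 3.34, 3.26 and 3.3, with overlap in both. Their changes were -0.13 (SE 0.10) and 0.03 (SE 0.07), and at an unadjusted p under 0.05 the count was also 0. The sign of H4c2 turned under each of 3 other scalings. Both levels lay within the background range, so a fall could have been missed.

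Of 4 replication-dependent linker histone genes 3 fell, with a median of -0.40. H1f2 (Hist1h1c), another replication-dependent gene known to give polyadenylated mRNA, was at 10.02, 10.06 and 10.11 in untreated and 9.68, 9.62 and 9.68 in degarelix replicates. The groups were tight and apart, with a 1.32-fold difference (change -0.40, SE 0.07, limma adjusted p = 0.0066). H1f5 (Hist1h1b) was at 4.86, 4.78 and 4.64 and then 4.24, 4.22 and 4.20 (change -0.54, SE 0.08, limma adjusted p = 0.00298). H1f3 fell by 0.41, and H1f1 had a change of -0.25 (limma adjusted p = 0.236).

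By position, in the Hist1 locus 15 of 19 fell (median -0.51) and in the Hist2 locus 4 of 6 (median -0.54). Among the 6 whose untreated mean lay above the brightest background probe set all fell (median -0.88). Among the other 19 there were 13 that fell (median -0.51). That split used the untreated level alone. H2ac15 and H2bc18, with changes of -1.88 and -1.34, were above that probe set in the untreated group only. The others, H2bc21, H2ac10, H1f2 and Hist1h2aj, were above it in both groups and had changes of -1.50, -0.43, -0.40 and -0.40. Histone coding sequences of a family are nearly alike, so that clusters annotated to 1 gene may also read its relatives, which was not tested.

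Many histone genes share a cluster, and these clusters, outside the 40 members, gave a second reading by family. There were 43 transcript clusters annotated with several symbols, at least 1 of them a histone gene, of which no single gene can be named, and they were taken from the same model fitted over 65956 clusters, where 3.07% were called lower and 1.88% higher. Of those annotated wholly to 1 family, 7 of 9 H2B, 7 of 9 H2A, 7 of 7 H3 and 1 of 11 H4 clusters fell, none rose, and the medians were -1.13, -0.48, -0.59 and -0.24. At an unadjusted p under 0.05 the counts were 9, 8, 7 and 6 lower and 0 higher. The share of all clusters under that threshold is not given here, so these counts have no background to be read against. Their symbols and probably their targets overlap, so they are not independent of each other or of the members.

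The H2B shared cluster with the highest untreated mean and the H3 shared cluster with the largest fall both lay above the brightest background probe set. The H2B cluster, annotated to 4 genes, was at 11.17, 11.58 and 11.51 in untreated and 10.06, 10.36 and 10.32 in degarelix replicates (change -1.17, SE 0.13, limma adjusted p = 0.00178). The H3 cluster, annotated to 8 genes, was at 8.83, 8.92 and 8.94 and then 7.49, 7.60 and 7.70 (change -1.30, SE 0.08, limma adjusted p = 1.98e-04). Neither cluster had overlapping groups. Another cluster of the same 4 H2B genes, at an untreated mean of 11.04, had a change of -1.26. Some other bright clusters changed by less. The brightest shared cluster, an H2A cluster at 12.11, fell (change -0.50, limma adjusted p = 0.0222). H2A shared clusters at untreated means of 10.63 and 10.66 had changes of -0.18 and -0.15 (limma adjusted p = 0.186 and 0.28). H3 clusters at 9.29 and 8.73 fell, with changes of -0.68 and -0.58. No difference between families was tested.

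H4 clusters of 13 genes did not move alike. One fell from 10.30, 10.35 and 10.19 to 9.82, 9.79 and 9.91 (change -0.44, SE 0.08, limma adjusted p = 0.0149). Another was at 9.08, 9.77 and 9.52 and then 9.66, 9.77 and 10.12 (change 0.39, SE 0.18, limma adjusted p = 0.289), lowest in untreated replicate 1 and highest in degarelix replicate 3. Likewise, of 2 clusters annotated to the same 3 H2B genes, one, at an untreated mean of 8.97, fell (change -1.13, limma adjusted p = 0.0034). The other, at 11.04, had overlapping groups and a change of -0.33 (limma adjusted p = 0.255).

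**Figure D2:**
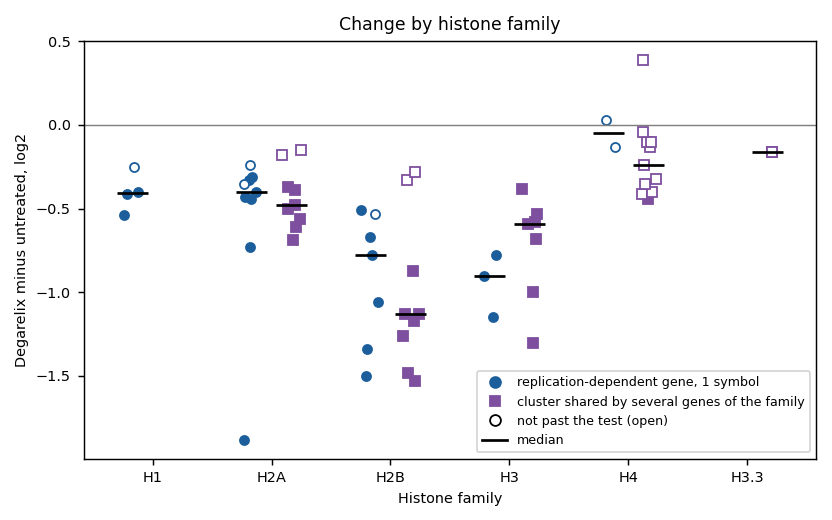
Change (degarelix minus untreated, log2, y axis) by histone family, with circles for replication-dependent genes of 1 symbol, squares for clusters shared by several genes, open symbols for values not past the test and bars for medians. H2B squares have a median of -1.13 and H4 squares of -0.24, and the 2 H3.3 squares coincide at -0.16.

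Of the variants, H2ax and H2az1 fell. H2ax (H2afx) encodes H2A.X, which is phosphorylated beside DNA breaks, and its gene is known to give both a stem-loop and a polyadenylated mRNA. It was at 9.77, 9.79 and 9.91 in untreated and 8.65, 8.93 and 8.98 in degarelix replicates, 1.96-fold lower with no overlap (change -0.97, SE 0.10, limma adjusted p = 6.32e-04). H2az1 (H2afz), which encodes H2A.Z, was at 11.50, 11.75 and 11.74 and then 10.87, 11.18 and 11.01, 1.56-fold lower with no overlap (change -0.64, SE 0.10, limma adjusted p = 0.00551).

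H2az2 (H2afv), which encodes a nearly identical H2A.Z protein, was at 9.73, 9.96 and 10.17 and then 9.54, 9.62 and 9.73. Untreated replicate 1 met the treated range, and the change of -0.32 (SE 0.11) did not pass (limma adjusted p = 0.108). The fall of one H2A.Z gene and not of the other was not tested as a difference. Macroh2a1 (H2afy), the gene of the large macroH2A variant, was at 8.51, 8.79 and 8.79 and then 8.44, 8.42 and 8.48 (change -0.25, SE 0.09, limma adjusted p = 0.117), again with untreated replicate 1 nearest the treated arrays. H2aj was at 8.82, 9.18 and 9.04 and then 8.76, 8.96 and 8.85 (change -0.15, limma adjusted p = 0.368).

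H3.3 is the replication-independent H3, and none of its readings passed the test. H3f3c was at 9.88, 10.27 and 10.32 in untreated and 9.97, 10.01 and 10.01 in degarelix replicates (change -0.16, SE 0.11, limma adjusted p = 0.414), with untreated replicate 1 the lowest of the 6 arrays. The 2 clusters shared by the H3.3 genes, at untreated means of 8.31 and 8.73, had changes of -0.16 each (limma adjusted p = 0.357 and 0.247). The groups of the cluster at 8.73 did not overlap, and 1 of the 2 was lower at an unadjusted p under 0.05. The 4 clusters annotated to the same 8 replication-dependent H3 genes had changes of -1.30, -0.68, -0.58 and -0.38, all past the test, at untreated means of 8.89, 9.29, 8.73 and 5.68. The difference from H3.3 was not tested.

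The other variants were within the background range in untreated cells. H1f10 (H1fx), a linker variant, had the highest change of all members, at 6.57, 6.45 and 6.37 and then 7.09, 6.75 and 6.54 (change 0.33, SE 0.13, limma adjusted p = 0.159), with the groups overlapping. Macroh2a2 and Macroh2a3 had changes of 0.09 and 0.16 (limma adjusted p = 0.478 and 0.222).

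Leaving out untreated replicate 1 raised the count of variants that fell from 2 to 5 of 9 and moved their median to -0.30, with H2az2 (limma adjusted p = 0.0206), Macroh2a1 (0.0152) and H3f3c (0.0263) added. Without that array the replication-dependent count was 19, and 3254 of all genes fell in place of 2265. H2az2 was also called under quantile normalization (limma adjusted p = 0.0475).

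**Figure D3:**
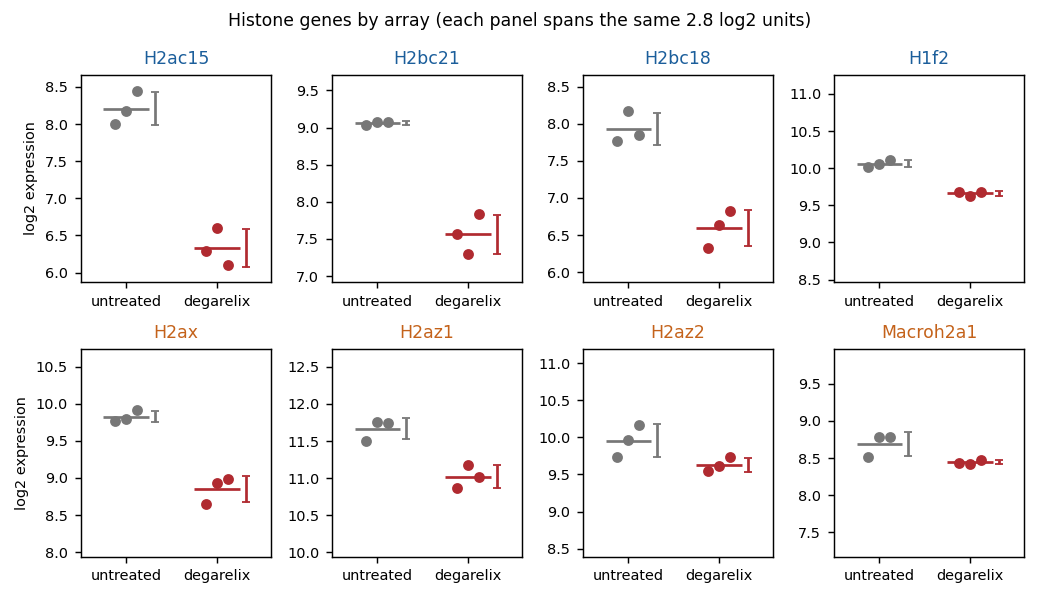
Log2 expression (y axis) of 8 histone genes on each array, points for arrays, long bars for group means and capped bars for SD, n = 3 per group; blue titles mark replication-dependent genes and orange titles variants. The groups are separate for H2ac15, H2bc21, H2bc18, H1f2, H2ax and H2az1 and barely so for Macroh2a1, whereas the lowest untreated value of H2az2 meets the treated range.

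Among the 6 germline genes H2bc1 (Hist1h2ba), the testis H2B gene, was called. It was at 8.39, 8.61 and 8.60 in untreated and 7.70, 7.82 and 7.85 in degarelix replicates (change -0.74, SE 0.08, limma adjusted p = 0.00108). Its groups did not overlap. The others had changes between -0.15 and 0.22, none past the test. Without degarelix replicate 3, H1f7 and H2al2a were called higher (limma adjusted p = 0.0334 and 0.0236), and both had their lowest value on that array.

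Lists of genes that supply and place histones were read from the same fit, in which 7.51% of all genes tested fell and 4.19% rose. At an unadjusted p under 0.05, 4507 of the 30141 genes were lower and 3381 higher. Of 18 measured histone mRNA processing genes 6 fell and none rose (12 and 0 at an unadjusted p under 0.05, median -0.28). Slbp fell by 0.52 (SE 0.08, limma adjusted p = 0.00443). Casp8ap2, which is needed for histone gene transcription, fell by 0.55, and the cleavage factor genes Cpsf3 and Cpsf2 had changes of -0.72 and -0.32, both past the test. Npat, the cyclin E target that switches on histone transcription, fell by 0.41 (limma adjusted p = 0.0289). Npat lost its call under median centring (0.0591), and Npat and Cpsf2 without untreated replicate 2 or 3 or degarelix replicate 1 or 2 (0.0613 to 0.114 for Npat and 0.0758 to 0.0937 for Cpsf2). Without untreated replicate 1 the count for the list was 14, and without each of those 4 arrays it was 3.

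Of 26 histone chaperone and deposition genes 12 fell and none rose (18 and 0 at an unadjusted p under 0.05, median -0.32), against 7.51% and 4.19% of all genes. Asf1b, the proliferation-linked copy of the H3-H4 chaperone, was 3.90-fold lower (change -1.96, SE 0.15, limma adjusted p = 2.14e-04), while Asf1a had a change of -0.29 (0.155). Chaf1a and Chaf1b, subunits of the factor that places newly made H3-H4 behind the replication fork, fell by 0.70 and 1.16, and Mcm2, a helicase subunit that binds parental H3-H4, by 1.31. The H3.3 deposition genes Ubn1, Cabin1, Daxx and Atrx, picked by role after their values were seen, had changes from -0.18 to 0.01 and did not pass. They do not stand for every gene of that role. Dek, a further histone chaperone gene of this list, fell by 0.71 (limma adjusted p = 0.00402). Leaving out single samples gave 8 (without degarelix replicate 1) to 16 (without untreated replicate 1) genes of this list lower.

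The centromeric H3 variant gene Cenpa was at 8.01 ± 0.21 in untreated and 6.67 ± 0.18 in degarelix tumors (log2, mean ± SD, n = 3 per group) (change -1.34, limma adjusted p = 4.30e-04). Its degarelix mean, like those of Mis18a, Oip5 and Cenpn, was not above the brightest background probe set. Of the 5 measured genes of its loading list 4 fell and none rose (4 and 0 at an unadjusted p under 0.05), with Mis18a at -1.15, Oip5 at -1.11 and Cenpn at -1.55. For comparison, 7.51% of all genes fell and 4.19% rose. In the S-phase list 22 of 23 genes fell and none rose, with 23 and 0 at an unadjusted p under 0.05. Its median of -1.37 compares with -0.51 for the replication-dependent histone genes. Of the 25 histone genes 19 had untreated means not above the brightest background probe set, against 4 of the 23. The 6 histone genes above it had a median of -0.88, but H2ac15 and H2bc18 were above it in the untreated group only. The part of signal level in the difference between the lists was not tested. Rrm1 and Rrm2, which make deoxyribonucleotides, had changes of -1.99 and -2.03, the cyclin gene Ccne2 of -1.83 and the replication factor gene Cdc45 of -1.65, all past the test. Their degarelix means of 6.04, 5.74, 5.17 and 6.74 were not above the brightest background probe set, so these changes may be understated.

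**Figure D4:**
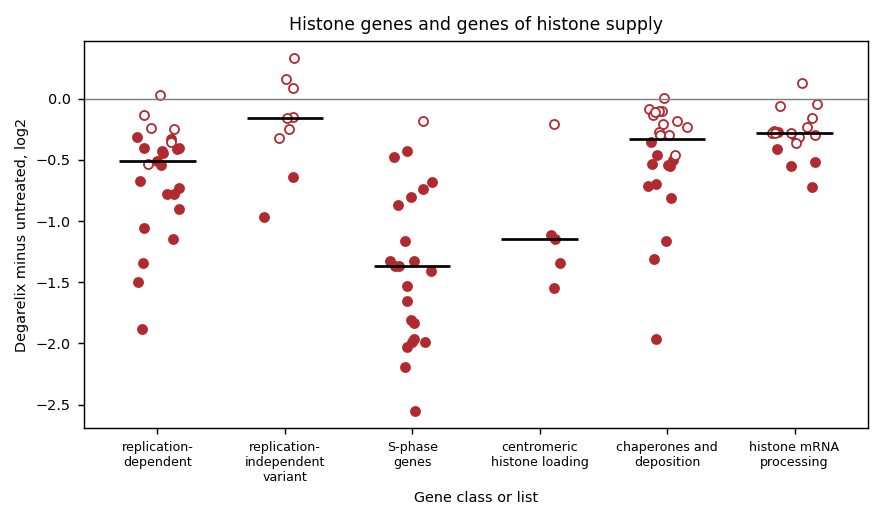
Change (degarelix minus untreated, log2, y axis) of each gene by class or list (x axis), filled where past the test, with bars for medians. S-phase genes have a median of -1.37, centromeric histone loading genes of -1.15, and replication-dependent histone genes of -0.51.

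Markers of cell types were read in the same arrays. Of 4 epithelial markers measured, Krt8 lay above the brightest background probe set (11.55 in untreated, 11.92 in degarelix tumors), while Epcam, Cdh1 and Krt18 did not (3.85, 4.85 and 5.50 in untreated tumors). The sorted-out leukocyte markers Ptprc, Itgam and Adgre1 were within the background range, and of 8 leukocyte markers Cd68 and Lyz2 were above it. The log2 of the summed leukocyte markers was 10.06 in untreated replicate 1, 8.57 and 9.20 in the other untreated samples and 8.55 to 8.61 after degarelix. For 6 fibroblast markers it was 10.63 to 10.94 in untreated and 10.94 to 11.63 in degarelix samples, with Dcn and Fbln1 called higher, and for 4 endothelial markers 8.85 to 9.14 and 8.45 to 8.54, with Vwf called lower. The part of these cells in the histone differences was not tested.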

How the data were processed

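The deposited values are log2 expression from 6 arrays, which the authors made with Affymetrix Expression Console and RMA, per the submitters' processing notes. For the genome build and tool versions, none is given in the sources used here. In general RMA removes background, equalises array distributions and combines the probes of a transcript cluster, so changes of weakly hybridizing genes are understated and a shift common to a whole array is lost. Of 65956 transcript clusters 30604 had 1 gene symbol in the platform annotation, 2146 several and 33206 none. The brightest cluster of each of 30141 genes was tested without a filter, with symbols updated through Entrez identifiers (RefSeq GRCm38.p6). The number of arrays limits precision, and 23 background probe sets spanned 2.14 to 6.93.

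Groups were compared with lmFit and eBayes of limma 3.58.1 in R 4.3.3 (two-sided, Benjamini-Hochberg over all genes, threshold 0.05), tested on simulated data. Members and lists were chosen with earlier results of these data known. Genes were named by rule: per replication-dependent family the 2 smallest adjusted p, the brightest gene and any called gene against its family (none), every variant, called germline genes, up to 4 called genes per list and direction, and Slbp, Npat, Chaf1a, Cenpa and Hira (no value here). Other genes were named after their values were seen. Classes are described by counts and medians. The alternatives changed the scaling (median centring, cyclic loess, quantile), the variance model (intensity trend, robust), the filter (dim genes left out) or the cluster rule (averaging a gene's clusters), added a replicate block, or left out each sample. Figures used Python 3.11.15 and matplotlib 3.10.9.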

Additional observations from a re-analysis of the deposited data

How the results depend on the processing

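Of the 22 members called, 16 were called under each of 12 alternatives, the filter on dim genes aside. That filter, a mean above 5.86, kept 19 of 40 members. Of the replication-dependent genes left 8 of 8 fell, with a median of -0.6, where 2384 of the 13955 genes kept were lower and 1233 higher. The 8 include H2bc3, which was not called in the main fit (limma adjusted p = 0.0733, with the filter 0.0469). Leaving out single samples gave 14 to 19 replication-dependent genes lower and medians of -0.54 to -0.47, 2 to 5 variants lower with medians of -0.30 to -0.10, 0 to 2 germline genes higher, 3 to 14 processing and 8 to 16 chaperone genes lower, and over all genes 966 to 3254 lower and 624 to 1651 higher. The median of the variants was -0.05 under cyclic loess. Over all genes 1262 were higher and 2265 lower (35.8% higher), and median centring gave 691 and 1939 (26.3%), cyclic loess 43.6% higher and quantile normalization 44.9%. The change of H4c2 was -0.02 with median centring, -0.003 with cyclic loess and -0.01 with quantile normalization. The cause of these shifts was not tested. Same-numbered samples had deviations correlated at 0.163, 0.04 and 0.196, so the number was not taken as a pairing; the replicate block gave 18 replication-dependent genes and 3 variants lower, the third being H2az2 (limma adjusted p = 0.0418). Signal over background limits the 26 members with untreated means not above 6.93, and H2ac15 and H2bc18, whose degarelix means were not above it: their changes may be understated.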
